A study of Mus musculus with 63 samples.

Results

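RNA precipitated with an antibody against synaptopodin was compared between lesioned and non-lesioned entorhino-hippocampal tissue cultures. The comparison uses the 10 wildtype libraries of synaptopodin co-immunoprecipitated RNA (coIP), of 63 libraries in the series, chosen by their titles: 5 libraries after entorhinal cortex lesion (ECL) and 5 non-lesioned controls. All cultures came from C57BL/6J mice (Synpo+/+) of either sex, were prepared at postnatal days 3 to 5 and were kept in vitro for 18 days or longer. In ECL cultures the entorhinal cortex was cut off with a scalpel, which severs the perforant path, and the time between this cut and the lysis of coIP cultures is not given in the sources used here. Each biological replicate pooled 6 cultures by the paper's methods, or 5 to 6 by its figure legend. The cultures were homogenized with cycloheximide, and the lysate was precleared with protein A beads and incubated with an antibody against synaptopodin. An aliquot of each precleared lysate was sequenced as input, so every coIP library has an input library of the same lysate. The paper used synaptopodin-deficient cultures to correct for unspecific pull-down. That correction was not made here, so RNA that came down without synaptopodin is not separated in the coIP libraries.

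Synaptopodin is an actin-associated protein of dendritic spines that is needed for the spine apparatus, a stack of endoplasmic reticulum found in a subset of spines. Messenger RNAs that lie near spines can be translated there, and cycloheximide holds ribosomes on them during the precipitation. Denervation of the hippocampus by ECL is known to make microglia and astrocytes in the denervated layers reactive and to drive some glial cells into division. The comparison asks whether the pool of RNA precipitated with the antibody against synaptopodin changes after the lesion. The input of the same lysates is used to read that change.

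Total counts per library were 12888443 to 23155477 (median 20928329) in control coIP and 11601154 to 23375931 (median 17479897) in ECL coIP, against 20576235 to 26730691 in control input and 19844632 to 29014397 in ECL input. Levels are given as CPM, read counts scaled to a common library size with TMM factors within each fraction, and they are not corrected for gene length. The markers of excitatory neurons were present in every coIP library, with a summed level of 2072 to 3207 CPM, whereas the listed endothelial markers summed to at most 29.8 CPM. By Xist and the Y-linked genes each group held 1 library of mixed sex, 1 with Xist alone and 3 with Y-linked genes alone. In these bulk libraries fewer cells of a type and less RNA per cell cannot be told apart.

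Replicates 1 and 2 stood apart from replicates 3 to 5 in both lesion groups and in both fractions, and the labels name no batch. In coIP the summed oligodendrocyte markers were 2121 to 3238 CPM in replicates 1 and 2 and 5351 to 6999 CPM in replicates 3 to 5. Summed microglia markers were 1465 and 1472 CPM in control replicates 1 and 2 against 2147 to 2207 CPM in control replicates 3 to 5, and 1892 and 1936 CPM against 2502 to 2802 CPM after ECL. In input they were 1766 and 1813 CPM against 2492 to 2690 CPM in control, and 2326 and 2777 CPM against 3408 to 3987 CPM after ECL. On the first principal component of the coIP libraries (42.4% of the variance) controls scored -0.833 to 21.9 and ECL libraries -21.6 to 8.32. ECL replicate 5 lay among the controls there, and ECL replicates 2 and 4 were lowest (-21.6 and -13.4). These 2 had the lowest summed cytosolic ribosomal protein genes, at 5014 and 5037 CPM. Their summed nuclear and imprinted long noncoding RNAs were highest, at 20743 and 23580 CPM. On the second principal component of the coIP libraries (19.0% of the variance) replicates 1 and 2 scored 4.20 to 14.2 and replicates 3 to 5 scored -11.6 to 0.913. The main results are also given with a term for this split in the fit and from each of its sides alone, settings chosen after seeing the data.

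After ECL, mRNAs of dividing cells and 12 mRNAs known from microglia and macrophages were more abundant in the coIP RNA, and 17 mRNAs, 7 of them neuronal, were less abundant. A list of 20 microglia markers had 0 members called and a median log2 fold change of 0.39. The higher genes included the mitotic genes Ccnb1, Plk1, Cenpf, Top2a and Mki67 and the microglia and macrophage genes Plek, Spp1, Cd84 and Adgre1, while Gpc5, Lamp5, Nefm and Sncb were lower. Of 18449 genes tested, 58 were called by edgeR's quasi-likelihood test with a Benjamini-Hochberg adjusted p under 0.05, which is 0.314% of those tested, with 41 higher and 17 lower. The 41 higher genes had log2 fold changes of 0.55 to 2.73 (median 1.36) and the 17 lower genes -2.54 to -0.55 (median -0.75). In all 58 the 5 ECL libraries lay on the same side of the 5 control libraries without overlap, a separation found in 1.34% of all genes tested upwards and 1.19% downwards. The 58 were chosen by p from these same libraries, which favours such a separation, so it is no separate evidence. The median log2 fold change over all genes tested was 0.01, and 2252 genes had an unadjusted p under 0.05 where 922 would be expected from an even spread of p-values.

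By their known functions, assigned after the calls were seen, 25 of the 41 higher genes belong to cell division, 12 to microglia and macrophages and 2 to lipid handling. The remaining 2 are Hrk and the antisense transcript Gm10558. The cell division group rose by a median log2 fold change of 1.73 (3.32-fold) and the microglia and macrophage group by 0.69 (1.62-fold). Among the 17 lower genes 7 are neuronal and 3 encode G protein-coupled receptors.

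The genes of cell division had the largest rises in the coIP RNA. Their promoters are shown because these members moved together, and many genes of the G2 and M phases of the cell cycle carry a CCAAT box and a cell cycle homology region (TTTGAA) near their start. The sequences below come from RefSeq (GRCm38.p6), run 5′ to 3′ on the strand of the gene from 250 bases before to 50 bases after the start, and have CCAAT and TTTGAA on either strand in capitals.
Mki67 (chr7:135716330-135716629, minus strand): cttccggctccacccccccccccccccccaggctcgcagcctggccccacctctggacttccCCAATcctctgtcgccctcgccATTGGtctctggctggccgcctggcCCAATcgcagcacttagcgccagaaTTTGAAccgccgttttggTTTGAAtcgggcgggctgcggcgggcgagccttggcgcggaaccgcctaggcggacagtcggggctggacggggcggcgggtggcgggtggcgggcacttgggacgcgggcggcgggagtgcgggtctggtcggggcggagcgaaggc
Top2a (chr11:99024140-99024439, minus strand): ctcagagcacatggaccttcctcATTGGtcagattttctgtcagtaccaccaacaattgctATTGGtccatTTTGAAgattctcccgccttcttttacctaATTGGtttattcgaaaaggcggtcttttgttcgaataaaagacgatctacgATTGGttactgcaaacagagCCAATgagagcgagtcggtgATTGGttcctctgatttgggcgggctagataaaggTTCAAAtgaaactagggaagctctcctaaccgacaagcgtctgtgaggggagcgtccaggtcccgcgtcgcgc
Cenpf (chr1:189688037-189688336, minus strand): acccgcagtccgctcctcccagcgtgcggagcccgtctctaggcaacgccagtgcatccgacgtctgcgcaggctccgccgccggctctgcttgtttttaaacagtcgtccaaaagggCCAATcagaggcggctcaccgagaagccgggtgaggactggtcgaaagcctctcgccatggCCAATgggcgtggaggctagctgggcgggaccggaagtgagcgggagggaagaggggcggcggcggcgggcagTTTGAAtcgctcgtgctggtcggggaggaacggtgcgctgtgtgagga
Plk1 (chr7:122159185-122159484, plus strand): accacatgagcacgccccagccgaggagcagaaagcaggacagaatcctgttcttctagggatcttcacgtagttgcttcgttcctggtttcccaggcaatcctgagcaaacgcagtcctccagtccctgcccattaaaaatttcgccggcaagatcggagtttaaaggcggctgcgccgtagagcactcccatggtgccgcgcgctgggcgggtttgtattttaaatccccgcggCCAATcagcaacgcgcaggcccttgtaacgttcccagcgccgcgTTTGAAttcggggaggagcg
Ccnb1 (chr13:100786437-100786736, minus strand): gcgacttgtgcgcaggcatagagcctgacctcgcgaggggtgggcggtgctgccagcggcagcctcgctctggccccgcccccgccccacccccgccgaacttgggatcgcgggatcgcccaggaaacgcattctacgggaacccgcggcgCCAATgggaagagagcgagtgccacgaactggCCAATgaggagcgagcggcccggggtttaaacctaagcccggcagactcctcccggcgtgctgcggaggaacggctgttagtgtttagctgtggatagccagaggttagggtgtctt

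The letters CCAAT occurred 3 times in the Mki67 window, 6 times in Top2a, 2 times in Cenpf, 1 time in Plk1 and 2 times in Ccnb1. The letters TTTGAA occurred 2 times each in Mki67 and Top2a, 1 time each in Cenpf and Plk1 and 0 times in Ccnb1. Of the 25 called division genes 21 matched the promoter table by symbol, with 22 windows. CCAAT was in 68.2% of these windows against 37.4% of all 32851 windows of the same length, TTTGAA in 68.2% against 17.9%, and both in 54.5% against 6.95%. For the 12 windows of the microglia and macrophage genes (10 of 12 genes matched) the shares were 50% for CCAAT, 25% for TTTGAA and 16.7% for both. Both motifs were searched on both strands, and a match describes the sequence only.

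Mki67 (ENSMUSG00000031004.8, chromosome 7, 135689784 to 135716361, minus strand in GRCm38) encodes the proliferation antigen Ki-67. Its level was 7.32, 11.1, 13.1, 11.7 and 11.5 CPM in control replicates 1 to 5 and 41.7, 32.8, 27.7, 24.9 and 30.0 CPM in ECL replicates 1 to 5. Every ECL library was above every control library, with ECL replicate 1 highest and control replicate 1 lowest. The log2 fold change was 1.53 ± 0.17 (SE), with an edgeR adjusted p of 0.00423.

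Cenpf (ENSMUSG00000026605.14, chromosome 1, 189640606 to 189688086, minus strand) encodes a kinetochore-associated protein of mitosis. Control replicates had 6.16, 9.58, 8.59, 9.19 and 8.0 CPM and ECL replicates 64.9, 35.0, 32.8, 19.2 and 30.0 CPM. The groups did not overlap, and ECL replicate 4 was the ECL library nearest to the controls. Cenpf rose by a log2 fold change of 2.14 ± 0.26 (SE) (edgeR adjusted p = 0.00423).

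Top2a (ENSMUSG00000020914.17, chromosome 11, 98992943 to 99024189, minus strand), the topoisomerase that untangles replicated chromosomes, stood at 9.09, 14.1, 17.3, 16.9 and 15.8 CPM in control and at 87.7, 47.9, 46.4, 37.7 and 40.6 CPM after ECL. ECL replicate 1 was far above the other 4 ECL libraries, all of which were above the controls. The log2 fold change was 1.83 ± 0.23 (SE) (edgeR adjusted p = 0.00535).

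Ccnb1 (ENSMUSG00000041431.16, chromosome 13, 100778650 to 100786570, minus strand) encodes cyclin B1, the cyclin that drives entry into mitosis, and had the largest rise of all 58 called genes. It had 3.12, 2.29, 3.50, 2.33 and 3.33 CPM in control and 38.9, 16.96, 18.2, 11.8 and 10.2 CPM after ECL. The control libraries were close together, whereas the ECL libraries were spread widely with replicate 1 highest. The log2 fold change was 2.73 ± 0.33 (SE) (edgeR adjusted p = 0.00423), or 6.65-fold.

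Plk1 (ENSMUSG00000030867.7, chromosome 7, 122159439 to 122169873, plus strand), a kinase of mitotic entry and spindle assembly, was low in all controls, at 1.17, 0.871, 1.82, 1.02 and 1.34 CPM, and at 12.7, 6.70, 3.99, 5.41 and 5.16 CPM after ECL. The groups did not overlap, and the log2 fold change was 2.47 ± 0.32 (SE) (edgeR adjusted p = 0.00638). Rrm2, a subunit of the enzyme that makes deoxyribonucleotides, was at 7.41 to 9.33 CPM in control and 17.3 to 53.5 CPM after ECL, with ECL replicate 1 at 53.5 CPM and the other 4 ECL libraries at 17.3 to 20.8 CPM. Its log2 fold change was 1.62 ± 0.28 (SE) (edgeR adjusted p = 0.0258). Other called division genes included Birc5 (log2 fold change 2.29), an inhibitor of apoptosis that is part of the chromosomal passenger complex, Aurkb (1.73), the kinase of that complex, Knl1 (1.37), a kinetochore scaffold, and the mitotic kinesins Kif11 (1.17) and Kif20b (1.36).

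**Figure D1:**
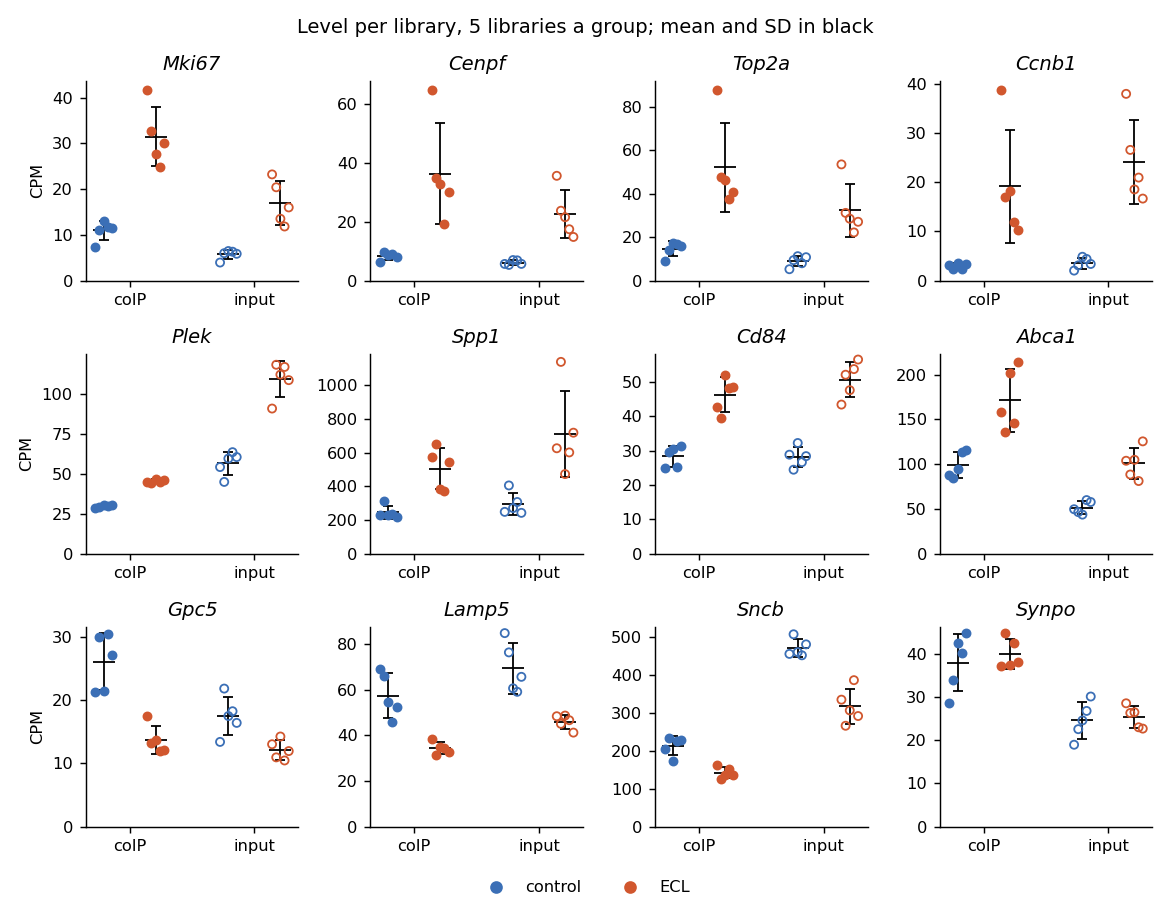
CPM per library for 12 genes, with coIP as filled and input as open points, control in blue and ECL in orange, 5 libraries a group, and the mean with SD in black. In coIP the ECL libraries lie apart from the controls for the 8 higher and 3 lower genes, and Synpo overlaps between the groups.

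Of a list of 17 proliferation genes, all of them tested, 7 were called higher in coIP against 0.222% of all genes tested, and 0 were called lower. The 7 were Mki67, Top2a, Ccnb1, Ccnb2, Birc5, Cenpf and Rrm2. The list's median log2 fold change was 0.91, against 0.01 over all genes, and 16 of 17 members were positive, against 51.3% of all genes. Among genes that act in S phase Rrm2 and, outside the list, Tk1 were called higher. The 6 minichromosome maintenance genes of the replicative helicase had log2 fold changes of -0.0047 to 0.63 with 0 called (smallest edgeR adjusted p = 0.176). In input these 6 genes had -0.12 to 0.87 with 3 called higher, against 2.45% of all genes tested there. In coIP Pcna, the sliding clamp of replication, had 0.07 ± 0.18 (SE) (edgeR adjusted p = 0.91). Cdk1, the partner of cyclin B1, had 1.69 ± 0.35 (SE) and missed the threshold (edgeR adjusted p = 0.0612). The summed level of the list was 241 to 268 CPM in the controls and 335 to 640 CPM after ECL, without overlap. With the term for replicates 1 and 2 the list's median was 0.90 with 7 called, from replicates 1 and 2 alone 1.14 with 8 called, and from replicates 3 to 5 alone 0.80 with 0 called.

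Microglia and macrophage genes formed the other large group of higher calls. Plek (ENSMUSG00000020120.15, chromosome 11, 16971206 to 17052381, minus strand), which encodes the protein kinase C substrate pleckstrin of blood-derived and myeloid cells, had 28.3, 29.0, 30.6, 29.8 and 30.3 CPM in control and 44.4, 44.0, 46.8, 44.6 and 45.8 CPM after ECL. Both groups were tight and lay well apart, and the log2 fold change was 0.61 ± 0.09 (SE) (edgeR adjusted p = 0.0169). Spp1 (ENSMUSG00000029304.14, chromosome 5, 104435118 to 104441050, plus strand), which encodes the secreted protein osteopontin, had 229, 313, 232, 236 and 217 CPM in control and 577, 650.3, 381, 373 and 544 CPM after ECL. Control replicate 2 was the highest control but stayed below every ECL library, and the log2 fold change was 1.04 ± 0.16 (SE) (edgeR adjusted p = 0.0186). Of the exonic bases of Spp1, 18.8% also lie in exons of another annotated gene, and counts made without strand cannot separate the genes there.

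Cd84 (ENSMUSG00000038147.13, chromosome 1, 171839697 to 171890718, plus strand), a SLAM family receptor of leukocytes, had 24.9, 29.6, 30.4, 25.3 and 31.2 CPM in control and 42.7, 39.5, 52.0, 48.3 and 48.6 CPM after ECL, a log2 fold change of 0.71 ± 0.12 (SE) (edgeR adjusted p = 0.0258). Adgre1, which encodes the macrophage antigen F4/80, was at 18.9 to 29.4 CPM in control and 35.5 to 47.0 CPM after ECL with a log2 fold change of 0.82 ± 0.14 (SE) (edgeR adjusted p = 0.0258). Neither gene's groups overlapped. Rises were also called for C3ar1 (log2 fold change 0.58), the receptor for complement fragment C3a, Cybb (0.60), the catalytic subunit of the phagocyte oxidase, Mpeg1 (0.76), a pore-forming protein of phagosomes, and Ctsz (0.55), a lysosomal protease. Msr1, a scavenger receptor, Tlr13, a sensor of bacterial RNA, Hpgds, a prostaglandin D synthase, and Cd180, a Toll-like receptor relative, complete the group, at log2 fold changes of 0.88, 0.68, 0.66 and 1.13.

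Of 20 listed microglia markers 0 were called by edgeR, 8 had an unadjusted p under 0.05, DESeq2 called 4 and voom 3, all higher. Of the 20, 19 had a positive log2 fold change, and the median was 0.39. Aif1, which encodes the microglial protein Iba1, had 6.67, 10.0, 10.5, 10.1 and 11.9 CPM in control and 21.6, 9.53, 19.6, 13.97 and 25.1 CPM after ECL, so that ECL replicate 2 lay within the controls, and its log2 fold change was 0.87 ± 0.23 (SE) (edgeR adjusted p = 0.145). Cx3cr1, the fractalkine receptor, was at 36.9 to 86.2 CPM in control and 65.8 to 126 CPM after ECL, with 0.47 ± 0.23 (SE) (edgeR adjusted p = 0.428). Summed over the list the level was 1465 to 2207 CPM in control and 1892 to 2802 CPM after ECL, with overlap, although within replicates 1 and 2 and within replicates 3 to 5 every ECL library was above every control. The median of the list was 0.43 with the term for replicates 1 and 2 (3 called higher), 0.56 from replicates 1 and 2 alone and 0.31 from replicates 3 to 5 alone (0 called in each), and 0.14 without control replicates 1 and 2 only. The part of microglial abundance in the calls above was not tested.

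Other immune lists had few calls or none. Of 13 genes of phagocytic microglia tested, 2 were called higher, against 0.222% of all genes tested, and 11 were positive (median 0.36). Without control replicate 1, 4 or 5 the number called was 0. Complement genes had 1 of 13 called higher and 12 positive (median 0.35), and 0 were called without any one of the control replicates or without ECL replicate 2 or 3. Of 14 chemokines tested 9 were positive (median 0.39, or 0.017 without ECL replicate 1), with 0 called by edgeR, 2 at an unadjusted p under 0.05 and 2 called higher by DESeq2. Genes of MHC and antigen presentation had 5 of 11 positive (median -0.0021), with 0 called by edgeR, 3 at an unadjusted p under 0.05 and 1 called lower by DESeq2. All 17 interferon-stimulated genes were positive (median 0.33), and edgeR called 0, with 6 at an unadjusted p under 0.05 and 3 called by DESeq2. The 2 higher genes of lipid handling were Abca1 and Plin2. Abca1 (ENSMUSG00000015243.4, chromosome 4, 53030787 to 53159895, minus strand), which exports cholesterol from cells to lipoproteins, had 88.1, 84.5, 94.8, 114 and 115 CPM in control and 158, 135, 202, 146 and 214 CPM after ECL. The lowest ECL library, replicate 2, was above the highest control, and the log2 fold change was 0.79 ± 0.15 (SE) (edgeR adjusted p = 0.0376). Plin2, which coats lipid droplets, was at 46.0 ± 5.95 CPM in control and 72.9 ± 10.9 CPM after ECL (SD, n = 5 each), with a log2 fold change of 0.66 ± 0.13 (SE) (edgeR adjusted p = 0.0429). Hrk, a proapoptotic BH3-only gene expressed in neurons, was at 15.2 to 21.5 CPM in control and 27.1 to 37.6 CPM after ECL and rose by 0.81 ± 0.14 (SE) (edgeR adjusted p = 0.027).

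Fewer genes fell than rose after ECL among the 58, whereas more fell than rose by DESeq2, by voom, without a filter, without ECL replicate 5 and from replicates 1 and 2 alone. Gpc5 (ENSMUSG00000022112.14, chromosome 14, 115092215 to 116525179, plus strand), a cell surface heparan sulfate proteoglycan, was the member called among 14 astrocyte markers, against 0.0921% of all genes tested called lower. Of these markers 6 were positive (median -0.12). Gpc5 had 21.3, 30.1, 21.4, 30.5 and 27.3 CPM in control and 17.5, 13.3, 13.7, 12.0 and 12.2 CPM after ECL. The controls were spread, with replicates 1 and 3 lowest, yet stayed above every ECL library, and the log2 fold change was -0.92 ± 0.15 (SE) (edgeR adjusted p = 0.0258). Lamp5 (ENSMUSG00000027270.14, chromosome 2, 136052239 to 136069917, plus strand), a lysosome-associated membrane protein of neurons that marks a class of interneurons, had 68.8, 65.8, 54.4, 45.6 and 52.4 CPM in control and 38.2, 31.4, 34.9, 34.3 and 32.5 CPM after ECL. Control replicates 1 and 2 were highest and the ECL libraries close together, and the log2 fold change was -0.75 ± 0.12 (SE) (edgeR adjusted p = 0.0258).

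Nefm (ENSMUSG00000022054.11, chromosome 14, 68082590 to 68124846, minus strand), the medium neurofilament subunit of axons, had 54.8, 53.4, 58.0, 52.5 and 52.2 CPM in control and 35.2, 27.2, 31.5, 32.5 and 42.3 CPM after ECL. The controls were close together and ECL replicate 5 was nearest to them, with a log2 fold change of -0.68 ± 0.12 (SE) (edgeR adjusted p = 0.027). Of its exonic bases 19.2% also lie in exons of another gene. Sncb (ENSMUSG00000034891.13, chromosome 13, 54758860 to 54766595, minus strand), which encodes the presynaptic protein beta-synuclein, had 206, 235, 173, 226 and 228 CPM in control and 163, 125, 135, 151 and 137 CPM after ECL. Its groups did not overlap, although control replicate 3 and ECL replicate 1 were near each other, and the log2 fold change was -0.59 ± 0.11 (SE) (edgeR adjusted p = 0.0447).

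The other lower genes named by the rule were Adm (log2 fold change -0.83), which encodes the vasoactive peptide adrenomedullin, Dlx1 (-0.72), a transcription factor of forebrain interneurons, Aplp2 (-0.59), a relative of the amyloid precursor protein, Cbarp (-0.70), which binds calcium channel beta subunits, Olfm2 (-0.55), a secreted olfactomedin-domain protein, Sqle (-0.61), squalene epoxidase of cholesterol synthesis, and 1700037H04Rik (-0.82). Their edgeR adjusted p-values were 0.0258 for 1700037H04Rik to 0.0496 for Olfm2. The largest falls were those of low genes, Npsr1, Gpr101 and Gpr6, which encode G protein-coupled receptors. Npsr1, the neuropeptide S receptor, was at 0.912 to 1.63 CPM in control and 0.0429 to 0.392 CPM after ECL (log2 fold change -2.54 ± 0.47 (SE), edgeR adjusted p = 0.0361). Gpr101 was at 2.80 to 11.8 CPM in control and 1.16 to 2.42 CPM after ECL (log2 fold change -2.03 ± 0.35 (SE), edgeR adjusted p = 0.0266). Unc13c, a vesicle priming factor, was also called lower, at -0.87.

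Sqle was the member called among the genes of cholesterol synthesis. All 23 listed genes were tested, 23 had a negative log2 fold change, the median was -0.40, and 1 was called (16 at an unadjusted p under 0.05, 7 called by DESeq2) against 0.0921% of all genes tested. Sqle had 170.5, 209, 186, 185 and 220.2 CPM in control and 111, 109, 156, 127 and 135 CPM after ECL, with ECL replicate 3 nearest to the controls (log2 fold change -0.61 ± 0.12 (SE), edgeR adjusted p = 0.0495). Summed over the list, the controls had 1528 to 1891 CPM and the ECL libraries 1154 to 1417 CPM, without overlap.

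Interneuron markers had 1 of 14 members positive and a median of -0.41, with 0 called by edgeR or DESeq2 and 7 at an unadjusted p under 0.05. The median was -0.28 without control replicate 1, and -0.48 (1 called lower) and -0.24 (0 called) from replicates 1 and 2 and from replicates 3 to 5 alone. Gad1, which makes the transmitter GABA, had 938, 707, 426, 488 and 549 CPM in control and 545, 377, 363, 378 and 320.4 CPM after ECL. Control replicates 1 and 2 were highest and ECL replicate 1 lay among the controls (log2 fold change -0.65 ± 0.20 (SE), edgeR adjusted p = 0.21). Immediate early genes, which neurons switch on with activity, had 5 of 20 tested members positive and a median of -0.41, with 0 called by edgeR, 1 by DESeq2 (lower) and 7 at an unadjusted p under 0.05. This median was -0.21 without control replicate 1 and -0.39 with the term for replicates 1 and 2, and it was -0.69 from replicates 1 and 2 alone but 0.014 from replicates 3 to 5 alone. Fos, a subunit of the transcription factor AP-1, had 50.6, 36.6, 29.1, 33.7 and 31.2 CPM in control and 28.8, 26.2, 27.0, 26.7 and 27.6 CPM after ECL, with all ECL libraries below all controls, but it missed the threshold (log2 fold change -0.41 ± 0.14 (SE), edgeR adjusted p = 0.257). Egr1, an activity-induced transcription factor, had 0.29 ± 0.15 (SE) (edgeR adjusted p = 0.456). All 37 complex I subunits of the respiratory chain were negative (median -0.23), and 0 were called by edgeR or DESeq2, with 4 at an unadjusted p under 0.05. Their summed level was 3560 and 3490 CPM in ECL replicates 2 and 4 and 5206 to 6512 CPM in the other ECL libraries. The controls had 4713 to 7043 CPM, and the median ran from -0.45 to -0.04 over the settings. In the summed level of immediate early genes control replicates 1 and 2 were highest, at 338 and 299 CPM, against 216 to 249 CPM in the other 3 controls and 192 to 236 CPM after ECL.

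**Figure D2:**
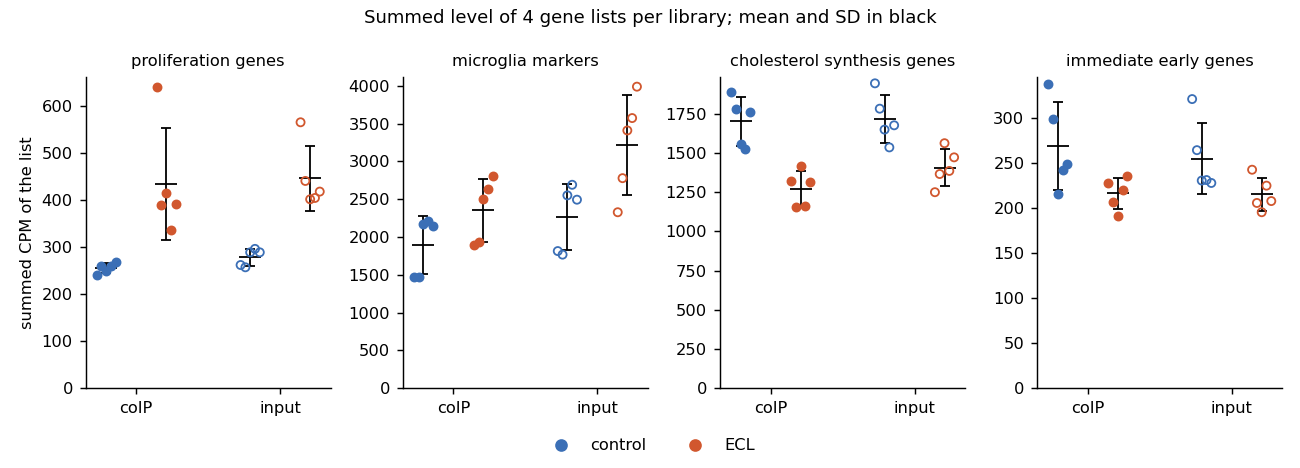
Summed CPM of 4 gene lists per library, with coIP as filled and input as open points, control in blue and ECL in orange, and the mean with SD in black. Proliferation genes (control coIP 241 to 268, ECL coIP 335 to 640) and cholesterol synthesis genes (1528 to 1891 against 1154 to 1417) separate the groups in coIP, and microglia markers and immediate early genes overlap.

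The lists of synaptic genes had 0 calls in coIP by edgeR, while Sncb and Unc13c, called above, are presynaptic genes outside them. Synpo itself (ENSMUSG00000043079.17, chromosome 18, 60593973 to 60660142, minus strand) had 28.6, 33.9, 42.5, 40.2 and 45.0 CPM in control coIP and 37.2, 44.9, 37.5, 42.7 and 38.2 CPM in ECL coIP. The groups overlapped, and the log2 fold change was 0.08 ± 0.13 (SE), with a 95% interval of -0.20 to 0.36 (edgeR adjusted p = 0.859). Its abundance in coIP over input differed by a log2 ratio of 0.47 ± 0.14 (SE) in control and 0.47 ± 0.10 (SE) in ECL. Shank1, a scaffold of the postsynaptic density whose mRNA is localised to dendrites, had 29.0, 35.6, 30.5, 37.6 and 39.8 CPM in control and 26.3, 28.3, 34.6, 36.5 and 34.4 CPM after ECL, with overlap, and a log2 fold change of -0.11 ± 0.13 (SE) (95% interval -0.39 to 0.17, edgeR adjusted p = 0.785). Shank1 stood higher in coIP than in input by 1.21 ± 0.16 (SE) on the log2 scale in control and by 1.22 ± 0.12 (SE) in ECL.

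Of 25 postsynaptic scaffold and CaMKII genes 0 were called, 14 were positive and the median was 0.02. Glutamate receptors (21 tested, 9 positive, median -0.01), dendritically localised mRNAs (10 tested, 5 positive, median -0.01) and the synaptopodin family with actinins and calcium store genes (18 tested, 12 positive, median 0.06) had 0 calls too. Of these 4 lists 0, 1, 1 and 3 members had an unadjusted p under 0.05, and DESeq2 called 1 member of the last, higher. Their median log2 ratios of coIP over input were 0.59 to 0.75 in control and 0.57 to 0.87 in ECL. Genes of synaptic vesicles and release had 4 of 27 positive (median -0.19), and GABA-A receptors 1 of 12 positive (median -0.21), with 0 called by edgeR in both, 7 and 4 at an unadjusted p under 0.05, and 1 and 2 called lower by DESeq2. A p above the threshold does not show that these genes stayed equal, and the intervals of Synpo and Shank1 give the range of change that the 5 replicates allow.

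**Figure D3:**
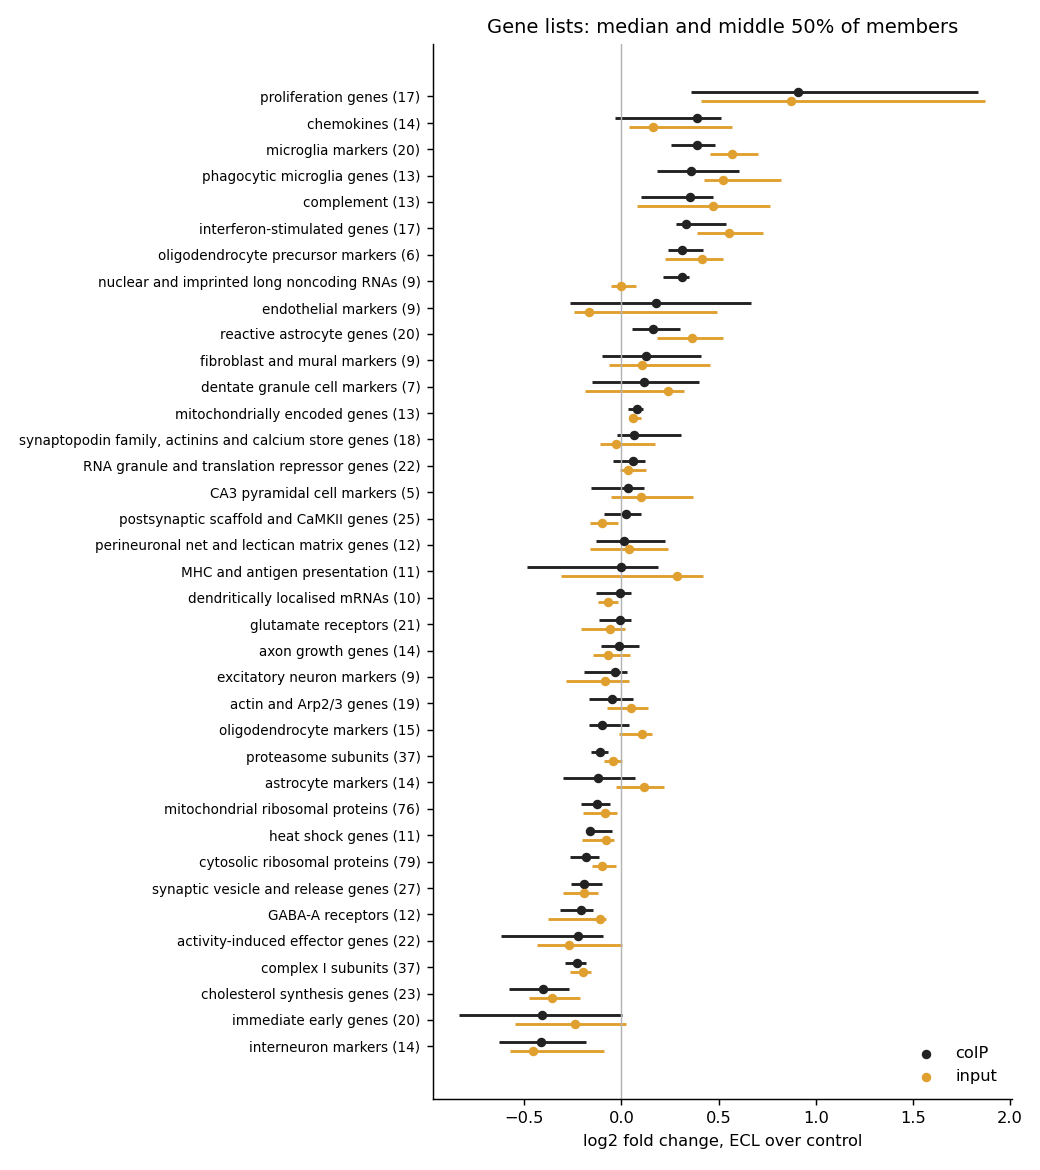
Log2 fold change, ECL over control, for the members of 37 gene lists in coIP (black) and input (orange), as the median (point) and the middle 50% of members (line), with the number of members tested in coIP in parentheses. Proliferation genes lie farthest to the right in both fractions, interneuron markers, immediate early genes and cholesterol synthesis genes farthest to the left in coIP, and synaptic scaffold, glutamate receptor and dendritic mRNA lists near 0.

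In the input of the same lysates 1007 of 17951 genes were called (5.61%), 439 higher (2.45%) and 568 lower (3.16%). The 58 genes called in coIP were all tested in input and had the same sign there, and 54 of them were also called. This is 93.1% of the coIP calls and 5.36% of the input calls, and since a coIP and its input share a lysate the 2 comparisons are not independent. The 4 not called in input were Knl1, Neil3, a DNA repair glycosylase of dividing cells, Npsr1 and Gm10558, for which the input had log2 fold changes of 0.85, 0.89, -0.58 and 0.25. Gm10558 is annotated as antisense, and its counts cannot be told apart from reads of the opposite strand. The median log2 fold change of the 25 division genes was 1.73 in coIP and 1.67 in input, and that of the 12 microglia and macrophage genes 0.69 and 0.82. The median log2 ratio of coIP over input was -0.06 in control and -0.11 in ECL for the division genes, -0.36 and -0.58 for the microglia and macrophage genes, and -0.40 and -0.63 for the 20 microglia markers.

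Mki67 had 3.93, 5.97, 6.45, 6.30 and 5.84 CPM in control input and 23.2, 20.4, 13.5, 11.8 and 15.98 CPM in ECL input, a log2 fold change of 1.58 ± 0.19 (SE) (edgeR adjusted p = 0.00068). The input groups did not overlap, as in coIP, and the replicate with the highest ECL level was number 1 in both fractions. Plek had 54.0, 44.7, 59.4, 63.4 and 60.3 CPM in control input and 90.6, 118, 112, 117 and 108 CPM in ECL input, a log2 fold change of 0.95 ± 0.10 (SE) (edgeR adjusted p = 0.000355). Gpc5 had 13.4, 21.9, 17.5, 18.3 and 16.4 CPM in control input and 13.05, 10.97, 14.3, 10.5 and 12.0 CPM in ECL input, where control replicate 1 lay among the ECL libraries, and a log2 fold change of -0.53 ± 0.13 (SE) (edgeR adjusted p = 0.0336).

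**Figure D4:**
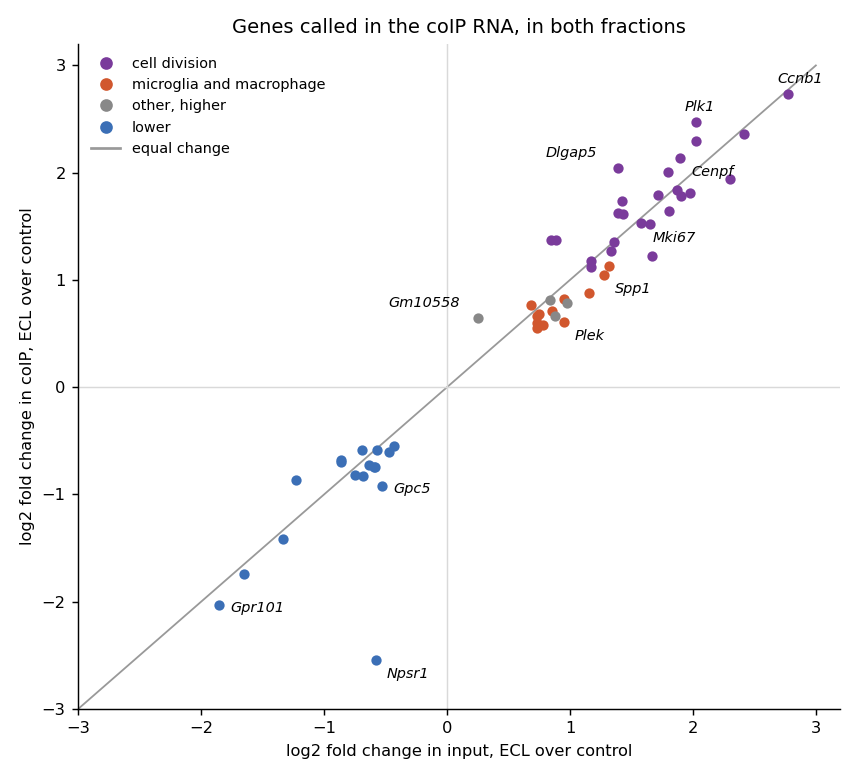
Log2 fold change, ECL over control, of the 58 genes called in coIP, with input on the horizontal and coIP on the vertical axis, 1 point a gene, coloured by assigned function, and a line of equal change. All points lie in the quadrants where both fractions changed in the same direction, most lie near the line, and Npsr1 is farthest from it.

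Whether the lesion changed coIP differently from input was tested as the interaction of lesion and fraction over all 20 wildtype coIP and input libraries. The main fit treated the coIP and input of a lysate as independent, although they share a lysate. The intervals of fraction differences given below come from that unpaired fit. It leaves the spread that a coIP and its input share in the intervals, so they can be too wide. Of 19581 genes 0 were called (0%) by edgeR's quasi-likelihood test (smallest adjusted p 0.99983), and DESeq2 and voom also called 0. At an unadjusted p under 0.05 there were 434 genes by edgeR, against 979 expected from an even spread, and 752 with the lysate as a block. The 3 protein-coding genes of smallest p over a mean normalized count of 300 were Rnf121, a ubiquitin ligase of the secretory pathway, Fkbp14, a folding enzyme of the endoplasmic reticulum, and Glmp, a lysosomal membrane protein. Their differences in log2 fold change, coIP minus input, were -0.37 (95% interval -0.61 to -0.13), -0.42 (95% interval -0.72 to -0.13) and -0.33 (95% interval -0.57 to -0.10), and none passed.

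For Mki67 the difference between fractions was -0.03 (95% interval -0.58 to 0.52), for Ccnb1 -0.02 (95% interval -0.97 to 0.93), for Plek -0.33 (95% interval -0.59 to -0.06), for Gpc5 -0.38 (95% interval -0.80 to 0.05) and for Synpo 0.05 (95% interval -0.32 to 0.41). Over the 58 called genes the differences had a median of -0.05, and the 95% interval held 0 for 55 of them, Plek being an exception. The intervals reached 0.27 to 1.57 (median 0.58) to either side of the estimate, so an interval that holds 0 does not show equal change in both fractions. In the list of nuclear and imprinted long noncoding RNAs the median log2 fold change was 0.31 in coIP (8 of 9 positive, 0 called) and 0.00 in input, and the interaction had a median of 0.26. Malat1, a nuclear long noncoding RNA, had 10042, 7022, 10104, 6227 and 7265 CPM in control coIP and 8574, 12159, 11307, 13203 and 11248 CPM in ECL coIP, with overlap, a log2 fold change of 0.47 ± 0.16 (SE) (edgeR adjusted p = 0.24) and a difference between fractions of 0.49 (95% interval 0.10 to 0.88), which did not pass adjustment. These RNAs are mostly nuclear, and their part in the other differences was not tested. Other lists were one-sided in the difference between fractions too, with 0 members called. It was positive for 24 of 25 postsynaptic scaffold and CaMKII genes (median 0.11). The same held for 16 of 19 genes of the synaptopodin family list (median 0.09). Microglia markers had 2 of 20 positive (median -0.16) and astrocyte markers 0 of 14 (median -0.20), against 7 of 14 interneuron markers.

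Libraries of dissected dentate gyrus (DG, 7 ECL and 4 control) and CA3 (3 ECL and 2 control), made from other wildtype cultures 3 days after ECL, give the same genes in separate tissue. In DG 2886 of 23720 genes were called (12.2%, with 7.86% higher and 4.31% lower), and in CA3 397 of 22340 (1.78%, with 1.5% higher and 0.273% lower). The sex-linked genes also differed between these regional groups, with 4 of 5 called higher after ECL in DG (median log2 fold change 7.04). In CA3 4 of 5 were positive (median 6.66), with 0 called by edgeR and 5 at an unadjusted p under 0.05. In both regions lesion therefore cannot be told apart from sex or from other differences between the animals used. All 41 genes higher in coIP were positive in DG and 30 were called, among them 16 of the 25 division genes and all 12 microglia and macrophage genes. In CA3 35 of the 41 were positive and 1, Ctsz, was called. Mki67 had a log2 fold change of 1.21 in DG (edgeR adjusted p = 0.00364) and 0.60 in CA3 (edgeR adjusted p = 0.0976), and Spp1 1.83 in DG (edgeR adjusted p = 0.000683).

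Of the 17 genes lower in coIP, 9 were negative in DG with 3 called lower (Npsr1, Lefty2 and Unc13c). In CA3 16 were tested, 6 were negative, 0 were called lower and 3 were called higher. These 3 were 1700037H04Rik (0.95, edgeR adjusted p = 0.0325), Sncb (0.63, edgeR adjusted p = 0.0423) and Aplp2 (0.60, edgeR adjusted p = 0.0393), all lower in coIP and in whole-culture input. The immediate early genes had a median of 0.97 in DG with 11 of 21 called higher, against -0.41 in coIP (0.014 from coIP replicates 3 to 5), and Fos had 1.61 in DG (edgeR adjusted p = 0.0019) against -0.41 in coIP. Cholesterol synthesis genes had a median of 0.01 in DG and -0.36 in input. The regional libraries differ from the coIP libraries in tissue, cultures, the sex balance between lesion groups and possibly time after ECL, which cannot be told apart here.

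The number of calls in coIP depended on single libraries. Without control replicate 1, 2, 3, 4 or 5 there were 6, 17, 27, 16 and 7 calls, and without ECL replicate 1, 2, 3, 4 or 5 there were 34, 26, 21, 103 and 217. With a term for replicates 1 and 2 against 3 to 5, 66 genes were called (49 higher, 17 lower), 53 of the 58 among them, with 24 of the 25 division genes and all 12 microglia and macrophage genes. From replicates 3 to 5 alone 0 genes were called (smallest edgeR adjusted p 0.0521, 1171 genes at an unadjusted p under 0.05), and from replicates 1 and 2 alone 110 (32 higher, 78 lower), 18 of the 58 among them, with 15 division genes. The median log2 fold change of the 25 division genes was 1.28 in the former and 2.14 in the latter, and that of the 12 microglia and macrophage genes 0.72 and 0.67. Without control replicates 1 and 2 only, which leaves ECL replicates 1 and 2 without counterparts, 0 genes were called (smallest edgeR adjusted p 0.0621, 1422 genes at an unadjusted p under 0.05), and with the replicate number as a block 1 gene, Ccnb1, was called. All 58 kept their sign in these settings. Mki67, Top2a, Cenpf, Ccnb1 and Plk1 were called in all 10 fits that left out 1 library, and 23 of the 58 in at least 5 of them. DESeq2 called 346 genes (156 higher, 190 lower), voom with quality weights 353 (119 higher, 234 lower), and the fit of all 20 libraries 212, and each of the first 2 included all 58.

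**Figure D5:**
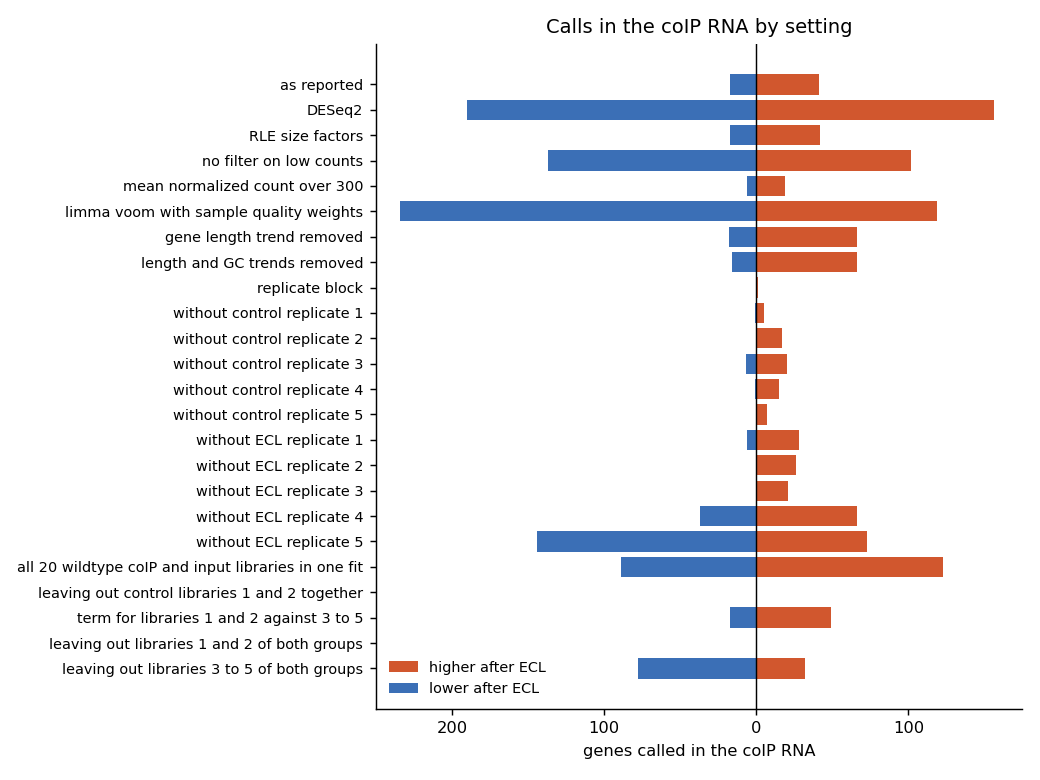
Number of genes called in coIP, higher (orange, to the right) and lower (blue, to the left) after ECL, as reported and under each other setting. The count runs from 0 without replicates 1 and 2 of the controls or of both groups to 353 with voom, and the balance of higher and lower calls turns with the method.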

How the data were processed

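RNA of 5 control and 5 ECL coIP lysates and of their inputs was sequenced as paired-end reads of 150 bp. The authors used cutadapt 3.5 for trimming and STAR 2.7.8a for alignment to mm10 (GRCm38), and counts over GENCODE exons came from featureCounts 2.0.1 without strand, the versions being those of the submitters' processing notes. The deposited values are these raw counts for 55291 gene symbols, not normalized, and 107 symbols stand for more than 1 gene. Synaptopodin-deficient libraries were not used here, and some genes are not reported here.

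Groups follow the labels. Counts were tested with edgeR 4.0.16 in R 4.3.3 (TMM, filterByExpr, quasi-likelihood test), with p-values adjusted (Benjamini-Hochberg) across the whole table, and called at 0.05. Coding genes named are up to 15 per direction of smallest p among calls with a mean normalized count over 300 in coIP, Synpo, up to 3 of the interaction and members of the lists, and further genes were named after their values were seen. The members, the rule and the lists were chosen with earlier results of these data known. Alternatives used DESeq2 1.42.0, limma 3.58.1 (voom), RLE, other filters, length and GC trends removed by lowess (span 0.3), a replicate block, a term for replicates 1 and 2 against 3 to 5, and left-out libraries. CoIP and input of a replicate come from 1 lysate, and their deviations from the group means correlated across genes with r of 0.298 to 0.621 in control and 0.157 to 0.636 in ECL. Each replicate is a pool of cultures, so p-values measure only the spread between these pools. On simulated counts for the coIP comparison (200 of 18129 genes changed 4-fold) edgeR called 198 of the changed and 9 of the unchanged genes. That change is larger than the 1.62-fold median of the microglia and macrophage calls, and the simulation held no split of replicates. It therefore gives no rate for smaller changes or for these libraries.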

Additional observations from a re-analysis of the deposited data

Results flagged for a closer look

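For named genes in control and ECL coIP, 72 groups of 5 libraries were checked for a library far from the other 4, and 6 had one, where chance gives about 1 in 20 groups. ECL replicate 1 was far above the other ECL libraries for Top2a (87.7 CPM), Rrm2 (53.5 CPM), Ccnb1 (38.9 CPM), Ccnb2 (21.8 CPM) and Gad1 (545 CPM), and control replicate 2 was far above the other controls for Spp1 (313 CPM). Without ECL replicate 1 the median log2 fold change of the proliferation list was 0.74, against 0.91 with it, and 7 members were called in both cases.

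For 10 genes all ECL libraries lay on opposite sides of all controls in coIP and in CA3. The log2 fold changes in CA3 were -0.50 for Hrk and -0.30 for Gm10558, which were higher in coIP, and 0.62 for Lamp5, 0.95 for 1700037H04Rik, 0.20 for Nefm, 0.63 for Sncb, 0.60 for Aplp2, 0.39 for Cbarp, 0.38 for Olfm2 and 0.45 for Rnf121, which were lower. Fos did so in DG, at 1.61, against -0.41 in coIP. These differences between preparations were not tested, and the share of all genes with such a reversal was not counted. CA3 has 2 control and 3 ECL libraries, so full separation there is a weak criterion, and sex-linked genes also differed between these groups.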

How the results depend on the processing

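The 58 genes called in coIP kept their sign under every setting tried, but their number did not hold. In coIP, 346 genes were called by DESeq2, 353 by voom with quality weights, 239 without a filter (102 higher, 137 lower), 212 in the fit of all 20 libraries, 25 above a mean normalized count of 300, 66 with a term for replicates 1 and 2 against 3 to 5, 110 from replicates 1 and 2 alone, and 0 from replicates 3 to 5 alone or without control replicates 1 and 2, the last 4 chosen after seeing the data. Leaving out 1 library gave 6 to 217 calls. In input the counts were 1677 by DESeq2, 551 in the fit of all 20 libraries, 283 without control replicates 1 and 2, 183 from replicates 3 to 5 alone, and 358 to 1070 with 1 library left out. The interaction had 0 calls in every setting. RLE size factors (59 calls) and the removal of length (84) or length and GC trends (82) changed the coIP count by less than 1.5 times. Synpo turned sign by voom (-0.0015) and without control replicates 1 and 2 (-0.070) and from replicates 3 to 5 (-0.096), and Pcna without 1 library (-0.078 to -0.015).

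Single replicate numbers did not pair control with ECL libraries, since the deviations of same-numbered libraries correlated with r of -0.399 to 0.216 in coIP and 1 of 5 matched its own number best, but numbers 1 and 2 stood apart from 3 to 5 in both groups. With the number as a replicate block 1 gene, Ccnb1, was called in coIP and 673 in input. Blocking by lysate left the interaction at 0. The cause of these changes was not tested. With 5 libraries a group the biological coefficient of variation was 0.219 in coIP, against 0.171 in input. The smallest log2 fold changes called in coIP were 0.55 upwards and -0.55 downwards, and small changes of single genes may have been missed. The proliferation list had 0 to 10 members called over the settings, with a median of 0.65 to 1.14.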
